A study of Mus musculus with 6 samples.

Results

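Apart from Oaz3, a testis-specific antizyme, the genes described here encode parts of the accessory structures that surround the axoneme of the mouse sperm tail. Those of the outer dense fibres are Odf1, Odf2, Odf3 and Odf4. Those of the fibrous sheath are Akap3, Akap4, Ropn1 and Ropn1l, and Smcp belongs to the mitochondrial sheath of the midpiece. All 10 genes were found by taking every probe set annotated with exactly one of these symbols and no other. This gave 26 of the 45037 probe sets on the array. Transcript levels were measured on Affymetrix mouse expression arrays in total RNA of whole testes dissected at postnatal day 21, from 3 Dazap1 mutant samples (Fn) and 3 wild-type samples (Wt) of a mixed C57BL/6 and 129 background. The mutants are homozygous for the Fn allele, in which a floxed Dazap1 gene keeps its neo cassette and yields an aberrant protein with an insertion between its RNA-binding domains. The allele is carried by every cell of the animal. The samples are labelled as biological replicates, and how many mice stood behind each was not given.

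Dazap1 encodes an RNA-binding protein that is abundant in the testis. A sperm tail is built after meiosis, when the axoneme grows out from a centriole of the round spermatid and is then covered by the dense fibres, which run along the doublet microtubules, by the helix of mitochondria in the midpiece and by the fibrous sheath in the principal piece. Many of the transcripts for these parts are made in spermatids and stored before they are translated, while several begin to be made in spermatocytes. Odf2 stands apart, because its protein, also called cenexin, is in addition a component of the centriole appendages in dividing and ciliated cells.

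Promoter sequences of 8 of the 10 genes, all but Odf1 and Oaz3, were taken from RefSeq on mouse assembly GRCm38.p6, each as a window of 300 bases, 250 before the transcription start and 50 after it. Positions are counted from the start, with negative numbers upstream of it. The promoters of Akap3 and Akap4, a pair of fibrous sheath anchoring genes on chromosomes 6 and X, held the longest run shared between promoters of any 2 of these genes. It was 20 bases long, lay from -34 to -15 in Akap3 and from -47 to -28 in Akap4, and of all 32851 windows in the table only these 2 held it. The next longest run shared between 2 of the genes was 14 bases. The 200 bases upstream of both starts are shown for that reason, with the shared run in capitals, for Akap3 at chr6:126852898-126853097 (plus strand) and for Akap4 at chrX:7067315-7067514 (plus strand).
Akap3: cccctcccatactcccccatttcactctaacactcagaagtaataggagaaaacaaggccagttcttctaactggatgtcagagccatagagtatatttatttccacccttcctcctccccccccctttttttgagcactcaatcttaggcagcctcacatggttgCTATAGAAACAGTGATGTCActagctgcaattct
Akap4: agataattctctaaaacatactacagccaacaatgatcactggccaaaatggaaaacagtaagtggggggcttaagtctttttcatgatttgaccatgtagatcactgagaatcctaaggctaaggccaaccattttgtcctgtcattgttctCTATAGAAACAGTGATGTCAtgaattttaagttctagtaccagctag

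The shared run ends in TGATGTCA. This motif was picked out after the sequences were read, so its presence in Akap3 and Akap4 was known beforehand. It was present on either strand in 3 of the 12 windows of the 8 genes, and in 3.62% of all windows. The 3 genes were Akap3, Akap4 and Smcp. In Smcp it lay downstream of the start, from 24 to 31. Of the other motifs searched, the full cAMP response element TGACGTCA was in none of the 8 genes and in 1.79% of all windows, and TATAAA was in none of them and in 13.6% of windows. TGACG, a shorter form of that response element and contained in it, was found in Odf2 alone and in 20.8% of windows. GTTGCC, part of the X-box bound by RFX factors, was found in Odf3 and Ropn1l and in 12.5% of windows. The windows of Odf2 and Ropn1l also differed from the others in their number of CpG dinucleotides. The 4 windows of Odf2 held 26 to 43 and that of Ropn1l held 22. The windows of Odf3, Odf4, Akap3, Akap4, Ropn1 and Smcp held 0 to 3, against a median of 7 over all windows. In the share of G and C, Ropn1l (58%) was close to Odf3 (55.3%), with a median of 52.7% over all windows. The stretches upstream of the start are shown for Odf2 at chr2:29889570-29889719 (plus strand, TGACG in capitals), for Odf3 at chr7:140847816-140847915 (plus strand) and for Ropn1l at chr15:31453690-31453789 (minus strand), the last pair with GTTGCC in capitals.
Odf2: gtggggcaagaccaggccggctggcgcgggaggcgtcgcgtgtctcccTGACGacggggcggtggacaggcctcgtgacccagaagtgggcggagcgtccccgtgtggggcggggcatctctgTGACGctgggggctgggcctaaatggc
Odf3: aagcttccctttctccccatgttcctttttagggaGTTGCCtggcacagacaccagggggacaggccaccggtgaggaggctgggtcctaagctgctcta
Ropn1l: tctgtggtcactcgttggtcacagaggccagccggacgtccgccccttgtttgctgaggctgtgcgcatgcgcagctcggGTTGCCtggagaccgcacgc

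The values are MAS5 signals, linear intensities that summarise the probes of a probe set. The arrays came scaled to a common level, with means of 497.7 to 498.0 once the highest and lowest 2% of values were left out. Dazap1 itself had signals of 2538, 2735 and 2820 in Fn testes, against 4323, 4462 and 5046 in Wt testes. Changes are given as the log2 difference Fn minus Wt with its standard error (SE), and p-values are from limma, adjusted by Benjamini-Hochberg over those 27022 probe sets whose geometric mean signal reached 48.0, the 40th percentile. A call means an adjusted p under 0.05.

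The sheath and fibre transcripts were lower in Fn testes for every gene, by at least 1 probe set each, and no probe set was called higher. Of the 26 probe sets, 17 reached the signal filter and 9 did not, partly because the filter averages over both genotypes and so drops sets that are bright only in Wt. Without the filter, limma called 19 of the 26 lower and 0 higher and left 7 without a call, where 12.9% of all probe sets were called lower; 0 of the 26 were higher at an unadjusted p under 0.05 in that fit. With the filter, 14 of the 17 were lower, 0 were higher and 3 were not called, beside 20.2% of all probe sets tested. In 20 of the 26, all 3 Fn values lay below all 3 Wt values, a pattern seen in 16% of all probe sets. The median log2 change of the 26 was -3.30, against 0.32 over all probe sets, and it was -2.80 against 0 when group means under 48.0 were set to that level. Of the 7 sets that were not called, 3 belong to Odf2 and 4 to Oaz3.

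**Figure D1:**
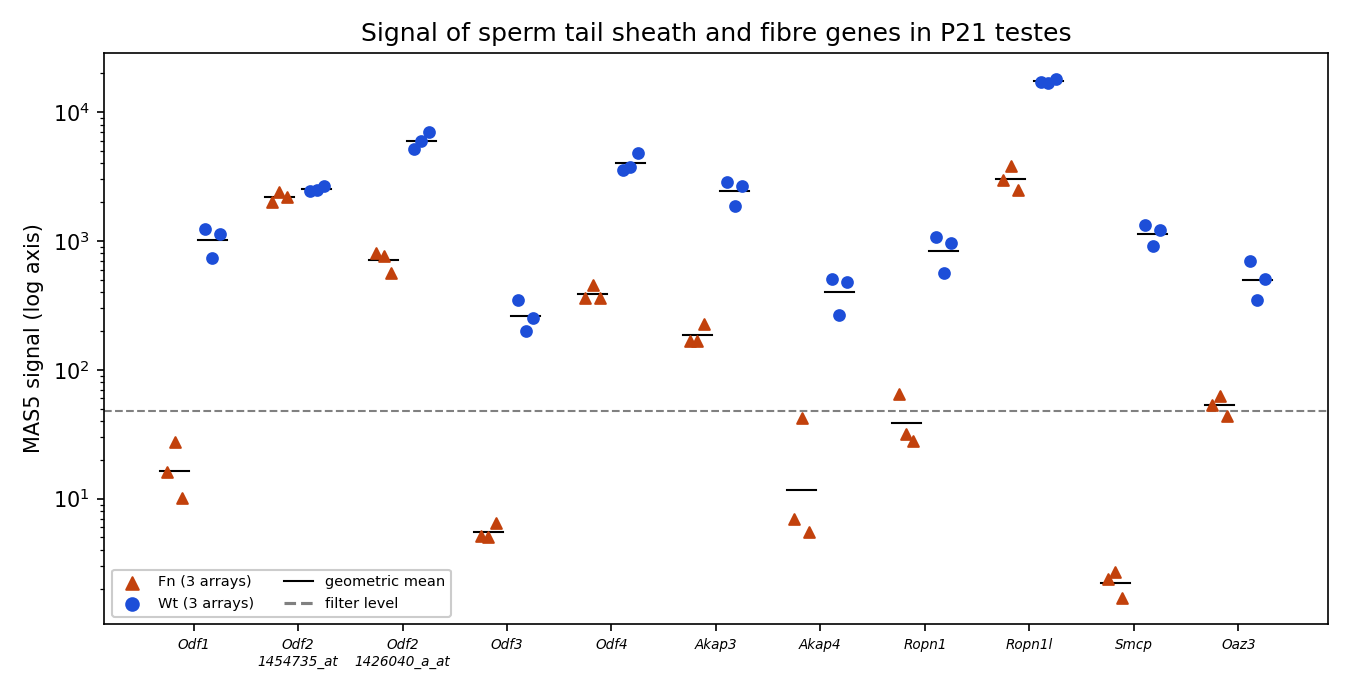
MAS5 signal (log scale) of the probe sets read most brightly for each gene, with the Odf2 probe set 1426040_a_at beside Odf2's brightest one; points are single testis samples, Fn left of Wt, bars show geometric means, and a dashed line marks the filter level of 48.0. The Fn samples lie below the Wt samples throughout, by little in Odf2 1454735_at (2003 to 2417 in Fn, against 2424 to 2676 in Wt), and for Odf1, Odf3, Akap4, Ropn1 and Smcp the Fn means lie under the filter level.

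In a whole testis, fewer cells of a type and less RNA per cell cannot be told apart, and cell type markers moved along with these genes. The 6 pachytene spermatocyte markers (such as Pgk2 and Ccna1) were all lower in Fn testes, with sums of 8454 to 11256 in Fn against 39670 to 47360 in Wt. All 5 round spermatid markers that reached the filter were lower, with sums of 1936 to 2302 in Fn against 15354 to 18037 in Wt over the 6 of the list. Of the elongating spermatid markers 2 were lower, 1 was not called and 3 were under the filter, with sums of 95.8 to 202 in Fn against 755.6 to 2267 in Wt. Hils1 made up most of the Wt sums. The other marker called lower, Prm2, overlapped between genotypes, with 22.9 to 41.2 in Fn and 34.8 to 229.7 in Wt (adjusted p = 0.047 from limma). Conversely, the 6 spermatogonial and the 6 Sertoli cell markers were all higher, and so were 4 of 4 peritubular myoid markers. Median log2 changes of the spermatogonial and Sertoli cell lists were 0.84 and 0.83, beside 0.32 over all genes. Other lists were mixed: 2 of 4 Leydig cell and 2 of 3 macrophage markers tested were higher, and 2 of 4 ciliated and epididymal markers were lower. Over all genes tested, 24.7% were called lower and 44.9% higher. The part of these shifts in the changes of the tail genes was not tested. The paper raised the concern that spermatocytes of mutants at day 21, which are growth retarded, might be less advanced than those of wild-type mice. It turned to adult Fn testes for its exon arrays for that reason. A difference in stage between the groups was not tested here.

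Where the Fn geometric mean lay under 48.0, how far a transcript fell cannot be read from the fitted change, so the fold is given as a bound, the Wt geometric mean over 48.0. This applied to 11 of the 19 probe sets called lower. Odf1, at chr15:38219203-38226735, encodes the major cysteine-rich protein of the outer dense fibres, without which sperm heads detach from tails in mice. Its probe set 1422585_at had signals of 16.1, 27.4 and 10.1 in Fn testes, against 1232, 738 and 1124 in Wt testes. The groups were far apart, and the transcript was at least 20.99-fold lower in Fn (log2 change -5.94, SE 0.36, adjusted p = 1.1e-06 from limma). The other 2 probe sets of Odf1 moved the same way, 1457659_x_at with 19.7, 12.1 and 74.0 in Fn against 267, 180 and 268 in Wt, and the dim 1440821_x_at with 1.6, 2.8 and 3.4 in Fn against 176, 99.1 and 128 in Wt. These were at least 4.88-fold and at least 2.73-fold lower (adjusted p = 9.8e-04 from limma, and 5.9e-05 from limma without the filter). Fn replicate 3 had the highest Fn value in both of these, though it had the lowest in 1422585_at.

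Odf3, at chr7:140847916-140850925, encodes a testis-specific fibre protein also known as SHIPPO1. Both of its probe sets were under the filter and were called lower only in the fit without it, 1420446_at with signals of 5.1, 5.0 and 6.5 in Fn testes against 346, 199 and 253 in Wt testes. For 1441916_s_at the Fn signals were 1.2, 1.3 and 2.0 and the Wt signals 501, 204 and 358. All Fn values of Odf3 were thus at the bottom of the scale, and the bounds were at least 5.40-fold and at least 6.91-fold lower (adjusted p = 7.7e-06 and 5.6e-06 from limma without the filter). Odf4, at chr11:68921835-68927081, encodes a membrane-associated fibre protein of spermatids and sperm. Unlike Odf1 and Odf3 it stayed well above the filter in the mutant: 1424978_at had 361, 454 and 360.0 in Fn against 3575, 3776 and 4795 in Wt, so that Fn testes held 9.69% of the Wt level (log2 change -3.37, SE 0.14, adjusted p = 2.0e-07 from limma).

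Odf2, at chr2:29889014-29931746, was the only gene with probe sets on both sides of the test among those that reached the filter. The set read most brightly on average, 1454735_at, had signals of 2003, 2417 and 2176 in Fn testes, against 2424, 2492 and 2676 in Wt testes. Its Fn values were all below its Wt values, but by little: the log2 change was -0.21 (95% interval -0.42 to 0.01, adjusted p = 0.088 from limma), or 86.7% of the Wt level. By contrast, 1426040_a_at had 812, 765 and 567 in Fn against 5196, 5942 and 6991 in Wt, a log2 change of -3.09 (SE 0.15, adjusted p = 3.9e-07 from limma). In the same way 1435216_a_at had 398, 355 and 287 in Fn against 3746, 4201 and 4858 in Wt, a log2 change of -3.63 (SE 0.14, adjusted p = 1.6e-07 from limma). Fn testes thus held 11.8% and 8.10% of the Wt signal by these sets, and 86.7% by 1454735_at.

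The other 2 sets of Odf2 were dim and did not separate the genotypes. Signals of 1439918_at were 137, 143 and 100.1 in Fn and 111, 132 and 189 in Wt (log2 change -0.16, 95% interval -0.73 to 0.40, adjusted p = 0.59 from limma). Those of 1444101_at were 57.4, 92.4 and 39.1 in Fn and 45.2, 74.4 and 41.3 in Wt (log2 change 0.19, 95% interval -0.71 to 1.09, adjusted p = 0.69 from limma). The sources used here do not give which Odf2 transcripts or exons each set reads, and the division was not assigned to transcripts.

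Within each array, the log2 difference of 1426040_a_at to 1454735_at was -1.30, -1.66 and -1.94 in the Fn arrays and 1.10, 1.25 and 1.39 in the Wt arrays, a shift of -2.88. For 1435216_a_at the shift was -3.42. Both had p = 0.10 in an exact two-sided permutation test over the 6 arrays, the smallest p that 3 against 3 allows, and an adjusted p of 0.16 over the 16 such differences computed. Of these 16, 10 had that same p, among them Oaz3 sets under the filter in both genotypes, so the test does not single out Odf2. Permuting only within the same-numbered pairs, which was added after the values were seen, gave an exact p of 0.25 for both, the smallest that 3 pairs allow. Within-array differences do not depend on the scaling between arrays. The small change of 1454735_at does: it was called lower with the arrays centred on their medians (log2 change -0.36, adjusted p = 0.020 from limma) or on their 75th percentiles (-0.34, adjusted p = 0.016) but not after quantile normalization (-0.16, adjusted p = 0.19), and it was called with array weights (-0.25, adjusted p = 0.030) and without Fn replicate 2 (-0.28, adjusted p = 0.040), whereas over all alternatives its adjusted p ran from 0.016 to 0.30.

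**Figure D2:**
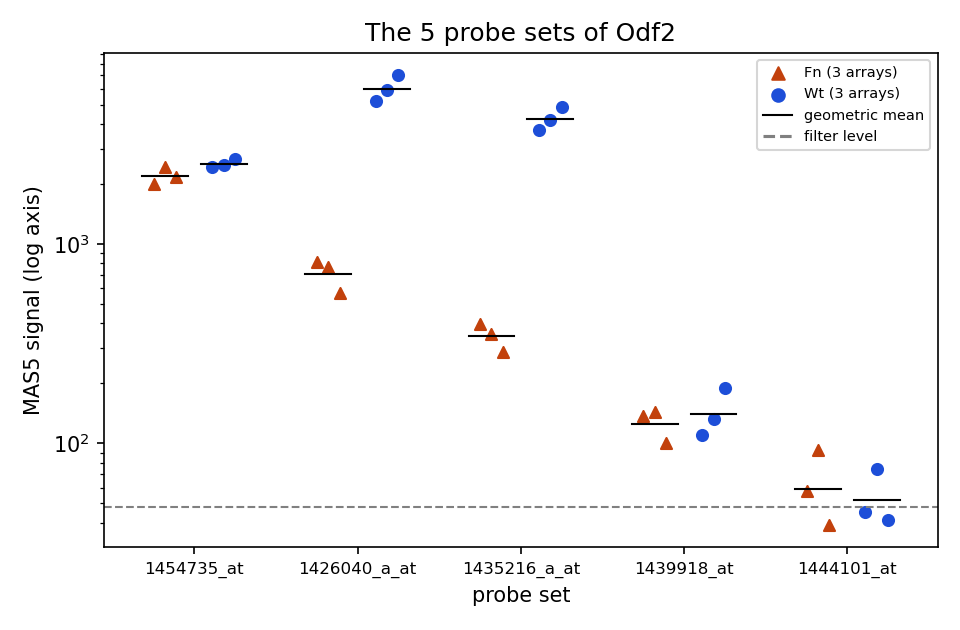
MAS5 signal (log scale) of the 5 Odf2 probe sets, with points for single testis samples, Fn left of Wt, and bars for geometric means. The Fn signals of 1426040_a_at (567 to 812) and 1435216_a_at (287 to 398) lie far below their Wt signals (5196 to 6991 and 3746 to 4858), while those of 1454735_at (2003 to 2417) lie just below theirs (2424 to 2676).

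Among the fibrous sheath genes, Akap3 and Akap4 encode the anchoring proteins that hold protein kinase A and form the ribs and columns of the sheath, AKAP4 being its most abundant protein. Akap3, at chr6:126853098-126874308, had signals of 169, 168 and 228 by 1456591_x_at in Fn testes, against 2864, 1873 and 2661 in Wt testes. Fn testes held 7.68% of the Wt level (log2 change -3.70, SE 0.19, adjusted p = 4.2e-07 from limma). The second set, 1421531_at, had 59.6, 61.5 and 82.7 in Fn against 669, 478 and 741 in Wt, or 10.9% of Wt (adjusted p = 2.3e-06 from limma). In both, Fn replicate 3 was the highest of the Fn arrays and Wt replicate 2 the lowest of the Wt arrays.

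Akap4, at chrX:7067515-7078609, is X-linked. Its 1451661_at had 6.9, 42.1 and 5.5 in Fn against 507, 265 and 478 in Wt, at least 8.34-fold lower (adjusted p = 1.7e-04 from limma), with Fn replicate 2 apart from the other Fn arrays. That array was not apart in the remaining 2 sets, which were under the filter. Signals of 1451662_x_at were 7.5, 5.9 and 5.2 in Fn against 297, 249.1 and 388 in Wt, at least 6.38-fold lower (adjusted p = 4.2e-06 from limma without the filter). Those of 1419019_a_at were 13.7, 1.5 and 3.4 in Fn against 554, 264 and 397 in Wt, at least 8.07-fold lower (adjusted p = 8.1e-05 from limma without the filter).

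Ropn1 and Ropn1l encode ropporin and its relative, which dock on AKAP3 in the sheath through a domain like that of the protein kinase A regulatory subunit; ROPN1L is also a radial spoke protein. Ropn1, at chr16:34649832-34678610, had 64.9, 31.5 and 28.1 by 1422543_at in Fn testes, against 1064, 566 and 965 in Wt testes, and was at least 17.4-fold lower (log2 change -4.43, SE 0.34, adjusted p = 5.7e-06 from limma). Ropn1l, at chr15:31441210-31453689, kept more of its signal. Its 1423959_at had 2961, 3806 and 2478 in Fn against 17049, 16858 and 18056 in Wt, or 17.5% of the Wt level (log2 change -2.51, SE 0.13, adjusted p = 5.3e-07 from limma). The second Ropn1l set, 1457627_x_at, had 428, 518 and 382 in Fn against 3100, 2675 and 3558 in Wt, or 14.2% of Wt (adjusted p = 4.8e-07 from limma). Apart from Odf2 1454735_at, Ropn1l thus had the smallest fitted changes among the brightest sets of the 10 genes, although the difference between Ropn1l and Ropn1 was not tested.

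Smcp, at chr3:92583866-92589073, encodes the cysteine-rich protein of the capsule around sperm mitochondria. It was read by 1 probe set, 1418358_at, with signals of 2.4, 2.7 and 1.7 in Fn testes against 1336, 910.2 and 1210 in Wt testes. The Fn signals were at the bottom of the scale, and the transcript was at least 23.7-fold lower (adjusted p = 1.4e-07 from limma). The fitted log2 change of -9.00 rests on those low signals, and became -4.51 when 50 was added to each signal, an alternative under which all 19 sets stayed lower but 9 of them shrank by more than 1.5 times.

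Oaz3, at chr3:94433387-94436651, encodes a testis-specific antizyme, an inhibitor of ornithine decarboxylase and thus of polyamine synthesis, that appears in haploid germ cells and is needed for a firm joint of head and tail in mice. The set 1437011_x_at had 53.5, 62.7 and 44.1 in Fn testes against 695, 347 and 505 in Wt testes, or 10.7% of Wt (log2 change -3.23, SE 0.27, adjusted p = 8.7e-06 from limma). By 1437010_a_at it had 31.0, 27.4 and 26.2 in Fn against 542, 275 and 434 in Wt, at least 8.36-fold lower (adjusted p = 3.6e-06 from limma). The remaining 4 Oaz3 sets, 1432571_at, 1453115_at, 1454279_at and 1429341_at, had group means under the filter in both genotypes, with signals of 2.4 to 58.8 in Fn and 1.6 to 38.1 in Wt, and none was called even without the filter (adjusted p from 0.18 to 0.86 in limma).

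**Figure D3:**
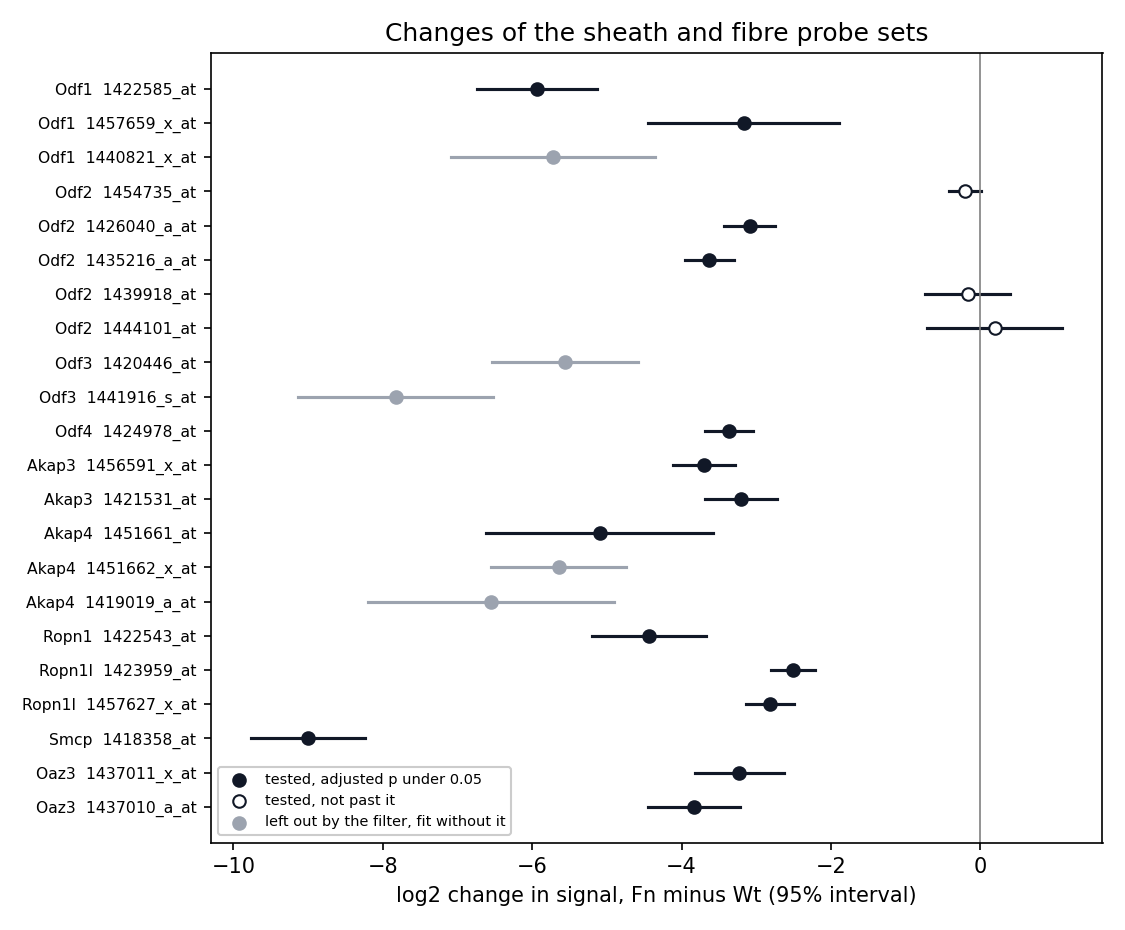
Log2 change Fn minus Wt with its 95% interval from limma for the probe sets of the 10 genes, without the Oaz3 sets that were under the filter in both genotypes; black points reached the signal filter (open where not called) and grey points were fitted without it. The intervals of 3 Odf2 sets reach 0, while the position of the 11 sets with Fn means under 48.0 rests on low signals.

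Probe sets of the other genes also differed in the size of their changes. The shift between the 2 sets of Akap3 was 0.50, of Ropn1l -0.30 and of the 2 Oaz3 sets called lower -0.61, each with p = 0.10 in the exact two-sided permutation test and an adjusted p of 0.16. With 50 added to each signal those of Akap3 and Oaz3 became 0.88 and -0.13, and the Oaz3 set 1437010_a_at is one with Fn signals under 48.0. For Odf1 1457659_x_at it was 2.77 and for Odf3 -2.27, again with p = 0.10 in the exact test and an adjusted p of 0.16. These compare sets whose Fn signals were all under 48.0, except for 74.0 in Fn replicate 3 by Odf1 1457659_x_at. When 50 was added to each signal, the shift of Odf3 became -0.42 and that of Odf1 1457659_x_at 2.16. The shifts of the Akap4 sets, -0.54 and -1.46, and of Odf1 1440821_x_at, 0.21, had exact p-values of 1, 0.70 and 1, and they became 0.41 and 0.20 without Fn replicate 2 and -0.37 without Fn replicate 3.

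The Wt arrays also differed among themselves in these genes, a pattern noticed after the values were seen and given as a description. Wt replicate 2 was the lowest Wt array in 16 of the 19 probe sets that were lower in Fn, beside 42.0% of all tested probe sets that were lower in Fn. It was under 75% of the mean of Wt replicates 1 and 3 in 14 of the 19, and in 10.1% of those 5453 probe sets. The 14 sets were all those of Odf1, Odf3, Akap3, Akap4, Ropn1, Smcp and the 2 of Oaz3: Wt replicate 2 held 62.6% of the mean of the other 2 Wt arrays in Odf1 1422585_at, 53.8% in Akap4 1451661_at, 55.8% in Ropn1, 71.5% in Smcp and 47.5% in Odf3 1441916_s_at. The remaining 5 sets were those of Odf2, with 97.5% and 97.6%, Odf4, with 90.2%, and Ropn1l, with 96.0% and 80.3%. Some related genes showed the dip as well, and others did not. Among 32 genes of related lists (other parts and partners of the tail) that were called lower in Fn, Wt replicate 2 was the lowest Wt array in 19 and under 75% of the others' mean in 9. It was lowest in 7 of 8 other fibrous sheath genes and 5 of 5 head-tail coupling genes tested. For annulus genes this was 3 of 4 and for fibre relatives and partners 4 of 6. It was 4 of 9 for mitochondrial sheath and capsule, 3 of 9 for centriole appendage and 0 of 7 for antizyme and polyamine genes. These list counts cover the genes tested, called or not, and Wt replicate 2 was lowest in 32.1% of all tested probe sets. Wt replicate 2 held 48.9% in Spata19, 53.0% in Sun5 and 54.8% in Gapdhs. It held 96.7% and 92.5% in the head-tail genes Hook1 and Cntrob, which were not called.

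Most spermatid markers dipped in the same array, some more than others. The elongating spermatid sum was 2267, 756 and 1172 in Wt replicates 1 to 3, so replicate 2 had 43.9% of the mean of the others. Hils1 made up most of that sum, with 1274, 499 and 906 (45.8%). Prm1 (385.5, 69.5 and 88.3) and Tnp2 (219, 20.8 and 35.1) were also lowest in replicate 2, but replicate 1 stood apart in them. Tnp1 had 106, 53.8 and 86.8, while Prm2 and Spem1 were lowest in replicate 3. The round spermatid sum, 15751, 15354 and 18037, and the pachytene sum, 39670, 41074 and 47360, put Wt replicate 2 at 90.9% and 94.4%. The round spermatid sum is carried by Dkkl1 and Actl7b, with 97.5% and 91.6%, while the remaining 4 of its 6 markers were under 75%: Spaca1 had 67.6%, Acrv1 60.4%, Catsper1 48.5% and Tssk6, which was dim in both genotypes, 37.8%. It was also at 68.1% in the sum of Leydig cell markers, and at 210% in that of ciliated and epididymal markers, where Spink8, a gene of the epididymis, had signals of 872, 2407 and 1188 in the Fn arrays and 256, 1586 and 686 in the Wt arrays. The part of these differences in the levels of the tail genes was not tested. Leaving out Wt replicate 2 left the number of sheath and fibre sets called lower at 14.

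**Figure D4:**
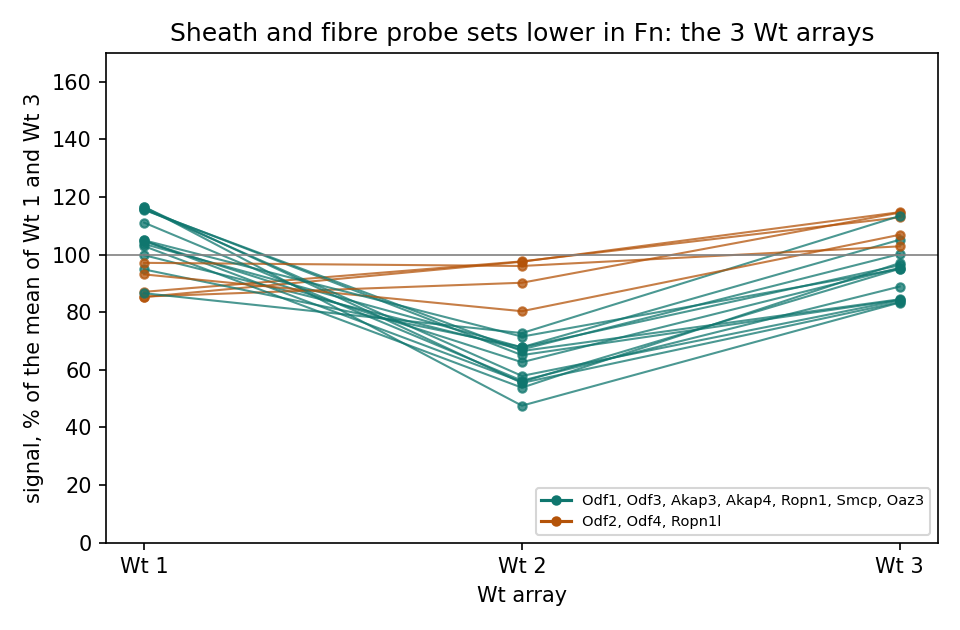
Signal of each Wt array as a percent of the mean of Wt replicates 1 and 3, for the 19 probe sets called lower in Fn, with a line joining the 3 values of a probe set. The 14 sets of Odf1, Odf3, Akap3, Akap4, Ropn1, Smcp and Oaz3 dip below 75% at Wt replicate 2, whereas those of Odf2, Odf4 and Ropn1l stay at 80.3% or above.

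The 7 lists of related genes, each gene taken by its brightest probe set, were mostly lower as well. Of the 48 genes tested, 32 were lower in Fn testes and 7 higher, with a median log2 change of -1.38 (-1.22 with group means under 48.0 set to that level), while of all 13447 genes tested 24.7% were lower and 44.9% higher, with a median of 0.32 on either scale. In 7 of the 32 the Fn geometric mean was under 48.0, and their falls are given as bounds. Small rises are to be read against that median, which was 0.17 with median-centred arrays, where 3686 genes were lower and 4456 higher, in place of 3328 and 6034. List genes that are not counted as tested had no probe set naming them alone or were under the filter. All 8 other fibrous sheath genes tested were lower (median -1.97). Nme8, a thioredoxin-domain protein of the sheath, had 7.1, 4.2 and 20.4 in Fn against 896, 767 and 941 in Wt, at least 18.02-fold lower (adjusted p = 4.1e-06 from limma). Gapdhs, the glycolytic enzyme bound to the sheath, was at least 8.37-fold lower. Cabyr, its calcium-binding protein, had a log2 change of -2.56, and Spa17, which shares the docking domain of ropporin, of -1.96. The list's Aldoart1, a germ cell aldolase, was under the filter, with 1.2, 1.0 and 6.6 in Fn and 241, 94.7 and 223 in Wt.

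Genes of the mitochondrial sheath and capsule were lower for 7 of 9 tested (median -1.55). Armc12, which acts in the alignment of sperm mitochondria, was at least 5.69-fold lower and Spata19 at least 11.1-fold, and the glycerol kinase Gk2 had a log2 change of -3.97. Gpx4, the selenoprotein that hardens the capsule, had one of -1.11, Vdac3 was not called (-0.08), and Dnm1l, a mitochondrial fission protein of all cells, rose by 0.62. Among the fibre relatives and partners, 3 of 6 were lower and 0 higher (median -0.71): Tssk4, a kinase that phosphorylates ODF2, was at least 5.89-fold lower, Spag4, which binds ODF1, changed by -1.54, and Spag5, a spindle protein that also binds ODF1, by -1.52. The relatives Odf2l (0.10) and Odf3b (0.11) and the kinesin light chain Klc3 (0.90, adjusted p = 0.051 from limma) were not called.

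In the annulus list, which holds the ring between midpiece and principal piece, 2 of 4 were lower, Slc26a8 (-3.35) and Septin12 (-3.26), Septin4 was not called (-0.30) and Septin7, a septin of many tissues, was higher (0.46). For the head-tail coupling genes 3 of 5 were lower (median -1.55), Pmfbp1 (at least 8.14-fold), Sun5 (-2.16) and Spata6 (-1.55). The centriole appendage genes, partners of the other role of Odf2, were lower for 7 of 9 (median -1.05), among them Cep128 (-2.65), Tchp (-2.16) and Fbf1 (-1.74), while Nin, a microtubule anchoring protein, was higher (1.38). Antizyme and polyamine genes had shares near those of all genes: of 7 tested, 4 were higher, 2 lower and 1 not called, with a median of 0.39 beside the 0.32 of all genes. Oaz1, the antizyme of somatic tissues, rose by 0.39, which is close to that median (adjusted p = 5.9e-04 from limma), as did the spermidine synthase Srm, the polyamine acetyltransferase Sat1 and the antizyme inhibitor Azin2 by 0.74, 0.64 and 1.38. With median-centred arrays the list's median was 0.23, again close to that of all genes. Oaz2 and Odc1, the ornithine decarboxylase itself, fell by 0.30 and 0.37 on the log2 scale.

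**Figure D5:**
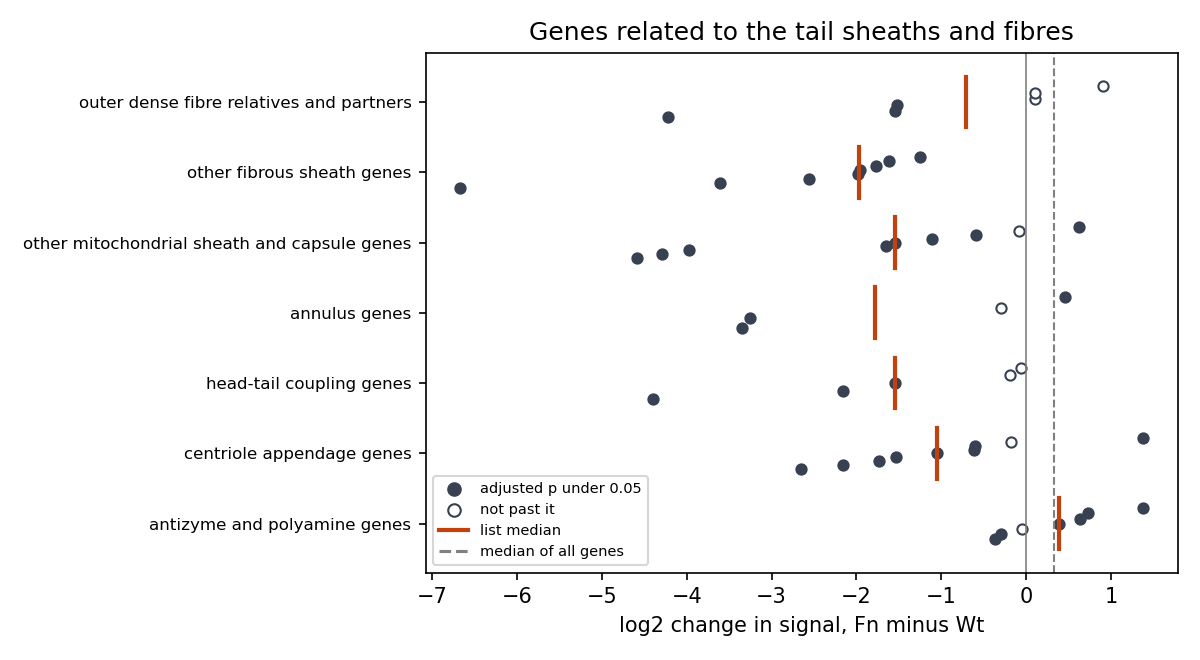
Log2 change Fn minus Wt of each tested gene in the 7 related lists, filled where the adjusted p was under 0.05, with bars for list medians and a dashed line at 0.32, the median of all genes tested. Fibrous sheath genes lie below 0 throughout, the antizyme and polyamine list has a median of 0.39, and the fitted changes of 7 genes called lower rest on Fn means under 48.0.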

How the data were processed

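Testis RNA of 3 Fn and 3 Wt samples was hybridised to 6 one-colour Affymetrix arrays. The authors deposited the MAS5 signal of each probe set, which is an intensity on a linear scale. The submitters' notes give MAS5 with no version, and no test is named for these arrays in the study's text. Detection calls were not used here.

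The platform annotation gave 1 gene for 34945 probe sets, several for 932 and none for 9160, and only the first kind was used. The genes and lists described were chosen with earlier results of these data known. The text names all 10 genes and, from each related list, genes that moved against most of their list and up to 3 with the smallest p. Any further list genes and the marker genes named were picked as examples with their values known.

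The 1 value of 0 was set to 0.1. Log2 signals were fitted with limma 3.58.1 under R 4.3.3 (lmFit, then eBayes with a trend on intensity) for the 27022 of 45037 probe sets at or above the 40th percentile of mean log2 signal. Sets under that filter took their values from a fit of all 45037. Genes, 13447 in all, were read by the brightest set that names them alone. Differences between probe sets of one gene were tested by exact permutation of the 6 arrays. Of these steps, only the limma fit was tested on simulated data, in which far fewer probe sets changed than in these arrays.

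Arrays of the same number in Fn and Wt departed together from their group means, though weakly (correlations of 0.13, 0.12 and 0.16), whereas other pairs gave -0.15 to 0.04. Since departures from a group mean cancel out within the group, higher values for same-numbered pairs lower those of other pairs, so this contrast is partly built in. The study's text gives independent experiments with different RNA preparations and states no pairing. The labels' numbers were thus taken to pair the samples on the strength of the values alone. The main fit and the permutation over all arrays left this pairing out, while the replicate block and the permutation within pairs used it. Arrays of one genotype had Spearman correlations of 0.951 to 0.961, and arrays of different genotypes of 0.897 to 0.914. The number of arrays limits the precision, and the p-values rest on the spread among these samples, whose mice are not stated. Alternatives covered scaling, filter, pseudocount, prior variance, array weights, threshold, the choice of set per gene, a replicate block and leaving out each array. Promoter windows were searched on both strands.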

Additional observations from a re-analysis of the deposited data

How the results depend on the processing

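Of 338 log2 changes recomputed for 22 sheath and fibre probe sets, 331 kept their direction and side of the threshold, 0 lost a call, 4 gained it (all Odf2 1454735_at) and 3 turned sign, each in an Odf2 set that was not called. Odf2 1439918_at was 0.0037 with array weights and ran from -0.34 to 0.051 with each array left out, and Odf2 1444101_at ran from -0.13 to 0.49. The number of sets called lower was 14, between 11 (filter at the median) and 19 (no filter), and the number called higher was 0 throughout. With the replicate block, which pairs the arrays by their number, 14 sets were called lower. Of all genes, 3410 were lower and 6165 higher, against 3328 and 6034 without the block. The block changed no call of a sheath or fibre set. Requiring more than 2-fold as well left 1860 genes lower and 1555 higher, and 2 related list genes higher in place of 7. Adding 16 or 50 to each signal moved the differences between probe sets of Odf1 1440821_x_at (1.96 and 2.18), Odf3 (-0.64 and -0.42), Akap3 (0.66 and 0.88) and Oaz3 1437010_a_at (-0.35 and -0.13), which follows from the low signals involved, and left those of Odf2 within their spread. Signals under 48.0 bound how far a fall can be measured.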

Other observations

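Several genes followed the sheath and fibre genes closely over the 6 arrays, by Pearson's r of log2 signal. This is a description, since the arrays share the genotype difference that dominates the values of Odf1 and Akap4. That difference was small for Odf2 1454735_at, with a log2 change of -0.21 that was not called. Pearson's r does not measure the size of a change. Nearest to Odf1 1422585_at were Tmem210 (r = 0.9998), Gsg1 (r = 0.9998) and Kpna2 (r = 0.9996), with 2107 of 13438 genes over 0.95. Kpna2 fell far less than Odf1, with 8495, 8811 and 8044 in Fn against 12382, 11956 and 12421 in Wt. Nearest to Akap4 1451661_at were Izumo2 (r = 0.9982), Smc2os (r = 0.9978) and Mrgbp (r = 0.9976), with 1233 over 0.95. For Odf2 1454735_at they were Galc (r = 0.9899), Faap24 (r = 0.9893) and Gcfc2 (r = 0.9883), with 55 genes over 0.95.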
